A study of Homo sapiens with 18 samples.

Results

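Untransfected U251 cells were compared 24 and 48 h into a culture experiment, using the 2 arrays titled Control at 48 h and the 2 titled Control at 24 h, which are 4 of the 18 arrays of the study. U251 is an established human glioblastoma line. The study silenced the mitotic kinase MPS1 with an siRNA (siMPS1) and set those cells beside cells given a negative siRNA (siNeg) and untransfected cells (Control), at 6, 24 and 48 h with 2 arrays in each of the 9 groups. The labels give the treatment of the Control cells as none. The sources used here do not give whether they received transfection reagent or fresh medium, how densely they were plated, or whether the replicate arrays came from separate cultures. P-values therefore measure only the spread between these arrays. Expression was measured on Affymetrix human genome arrays, from 250 ng of biotin-labelled total RNA per array. Levels below are log2(signal + 3), and a difference of 1 on this scale is a 2-fold change of signal + 3.

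The cells were checked against marker genes in the 4 arrays, on the deposited log2 scale. VIM (vimentin) lay between 11.66 and 12.02, CD44 between 11.28 and 11.51, NES (nestin) between 8.67 and 8.88 and SOX2 between 6.39 and 6.69, all above the array medians of 4.34 to 4.54. GFAP, the defining filament of astrocytes, lay below the array median in all 4 arrays (2.19 to 3.68), as did S100B, AQP4, OLIG2, SLC1A2, ALDH1L1 and CHI3L1. SLC1A3, the astrocyte glutamate transporter, was above the median in all 4 arrays (4.81 to 5.50). The 6 measured blood markers and the 5 endothelial markers were below the median in all 4 arrays, and so were 6 of 9 epithelial and 5 of 9 measured neuronal markers; KRT8, KRT18, CLDN4, NEFL, TUBB3, SYT1 and GAP43 were above it in all 4. The summed signal of the epithelial list was 888 to 903 at 24 h and 1004 to 1060 at 48 h, and that of the neuronal list was 3061 to 3308 and 3714 to 3754. The part of these shifts in the results below was not tested. The defining markers CDH1 and EPCAM lay below the array median in all 4 arrays. Replicate arrays correlated from 0.983 to 0.99 over the study and none were identical. The log2 ratio of 3' to 5' probe sets, a sign of RNA integrity, was 0.03 for GAPDH at 24 h and -0.03 at 48 h, and for ACTB it was 0.31 and 0.20.

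As background, cells placed in culture draw down nutrients and grow denser over days. The endoplasmic reticulum (ER) answers unfolded protein through the sensors IRE1, ATF6 and PERK, which raise ER chaperones, degradation factors and, through the transcription factor ATF4, genes of amino acid supply and stress. Secreted matrix, matrix proteases and growth-factor-induced early genes are further programmes that adherent tumour cells are known to adjust as a culture ages.

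Between 24 and 48 h, 17 of 27 genes of the unfolded protein response were called lower, and so were ATF3, DDIT3, COL6A2, MMP1, MMP3 and MMP10. Of 55 genes of oxidative phosphorylation, 30 were called higher. Of 7828 genes tested, 1533 (19.6%) were called, meaning a Benjamini-Hochberg adjusted p under 0.05 in limma. The called genes comprised 626 higher (8.0%) and 907 lower (11.6%) at 48 h. Changes were small: the median was 0.38 among genes called higher and -0.48 among those called lower, and 13 called genes were at least 2-fold higher (0.166%) and 63 at least 2-fold lower (0.805%). In bulk RNA, a different share of cells expressing a gene and a different amount of RNA per cell cannot be told apart.

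The balance of rises and falls depended on how the arrays were scaled. Over all genes tested, the median difference was -0.05 with the deposited scaling, -0.01 after quantile normalization and 0.09 after centring each array on its median. The calls were 690 higher and 772 lower (47.2% higher) after quantile normalization, and 1392 higher and 404 lower (77.5% higher) after median centring, against 40.8% higher with the deposited scaling. Each Control array mattered to the counts. Genes called higher numbered 415 without Control 24 h replicate 1, 335 without Control 24 h replicate 2, 376 without Control 48 h replicate 1 and 381 without Control 48 h replicate 2, and genes called lower numbered 561, 470, 600 and 547 in the same order.

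**Figure D1:**
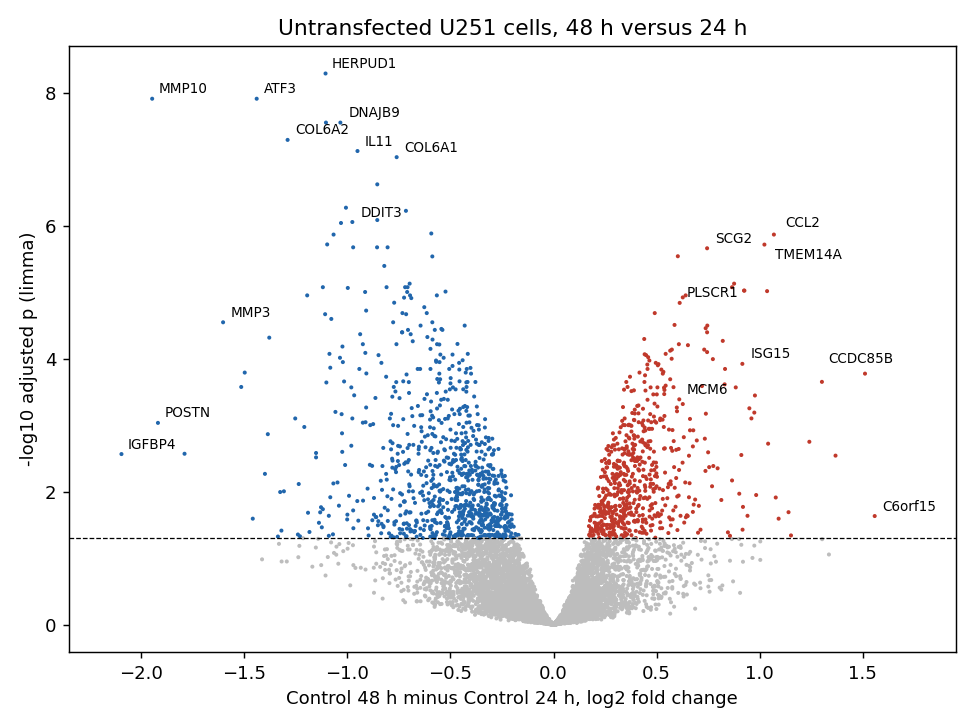
Difference between Control at 48 h and Control at 24 h (x axis, log2 fold change of signal + 3) against -log10 of the limma adjusted p (y axis) for 7828 genes. Red points are the 626 genes called higher, blue points the 907 called lower and grey points the rest, with the dashed line at an adjusted p of 0.05; HERPUD1 has the smallest adjusted p, and ATF3, MMP10 and COL6A2 are called falls of more than 1 log2 unit.

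The unfolded protein response had the largest share of members called among the 34 gene lists with the deposited scaling; after median centring the share was larger in oxidative phosphorylation (47 of 55 higher) and the proteasome (21 of 29 higher). Of the 27 members measured among 30 listed, 17 (63.0%) were called lower at 48 h and 0 higher, beside 11.6% lower over all genes, and the list median was -0.33 beside -0.05. The median was -0.36 after quantile normalization and -0.19 after median centring, and the number called lower ran from 13 to 18 over the 14 alternatives, and from 14 to 16 when any of the 4 Control arrays was left out.

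Several members carry in their promoters a known ER stress response element, the sequence read by ATF6 and XBP1. RefSeq promoters (GRCh38.p14, from 250 bases before the start of transcription up to that start) were found for 25 of the 27 members and searched on both strands for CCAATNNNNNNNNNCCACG, the ER stress response element, and for the ER stress response element II, which is ATTGG and CCACG separated by any 1 base and shares the letters CCACG with the longer element. The longer element was present in 6 of the 25 promoters (24.0%), in 22 of all 27305 promoters (0.0806%) and in 10 of the 6545 with a tested gene (0.153%). The shorter element was present in 3 of the 25 (12%), in 14 of all promoters (0.0513%) and in 10 of those with a tested gene (0.153%). The promoters with a tested gene include the 25, and the list was made of known unfolded protein response genes, so these shares are given as a description. The stretches that hold the elements are shown for 7 members, 6 that were called lower and XBP1, which was not, because they set the members' values beside the letters of their promoters. Each is printed 5' to 3' on the gene's own strand with the matched letters in capitals, and a match on the opposite strand appears as its reverse complement. They lie at chr16:56932005-56932114 on the plus strand (HERPUD1), chr11:119057269-119057410 on the minus strand (HYOU1), chr12:103930196-103930344 on the plus strand (HSP90B1), chr22:21642094-21642203 on the plus strand (SDF2L1), chr9:125241344-125241453 on the minus strand (HSPA5), chr19:12938364-12938473 on the plus strand (CALR) and chr22:28800570-28800679 on the minus strand (XBP1), all upstream of the start of the gene.

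HERPUD1: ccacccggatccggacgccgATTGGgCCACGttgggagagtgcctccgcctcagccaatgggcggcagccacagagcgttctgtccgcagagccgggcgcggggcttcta
HYOU1: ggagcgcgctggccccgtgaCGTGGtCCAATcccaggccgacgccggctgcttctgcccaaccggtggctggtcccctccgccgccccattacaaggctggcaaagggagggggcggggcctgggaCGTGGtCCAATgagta
HSP90B1: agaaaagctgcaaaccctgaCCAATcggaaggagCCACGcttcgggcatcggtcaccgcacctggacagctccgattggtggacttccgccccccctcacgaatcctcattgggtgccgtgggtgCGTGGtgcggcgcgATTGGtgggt
SDF2L1: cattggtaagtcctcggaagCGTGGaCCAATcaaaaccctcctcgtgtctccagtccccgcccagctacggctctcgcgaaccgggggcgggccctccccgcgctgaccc
HSPA5: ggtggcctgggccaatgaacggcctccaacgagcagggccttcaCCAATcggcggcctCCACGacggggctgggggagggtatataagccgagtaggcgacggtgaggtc
CALR: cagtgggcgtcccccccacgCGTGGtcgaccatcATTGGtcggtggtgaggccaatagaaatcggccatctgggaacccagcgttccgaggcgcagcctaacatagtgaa
XBP1: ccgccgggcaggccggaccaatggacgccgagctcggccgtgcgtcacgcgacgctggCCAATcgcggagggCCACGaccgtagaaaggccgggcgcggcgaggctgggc

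Of the 9 members with either element, 8 were called lower, with a median of -0.49 and a range from -1.11 to -0.14. Of the 16 members without, 8 were called lower, with a median of -0.29 and a range from -1.03 to 0.26. The ranges of both sets overlapped, and DNAJB9 at -1.03 had no match. A match describes letters only, and a missing match says only that these letters are not in the 250 bases searched.

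HERPUD1, a membrane protein of ER-associated degradation with the shorter element, had levels of 10.01 and 10.06 at 24 h and 8.96 and 8.91 at 48 h. All arrays at 48 h lay more than 1 log2 unit below those at 24 h, and the difference was -1.11 (SE 0.06, adjusted p = 5.09e-09 in limma), a signal + 3 2.15 times as high at 24 h. HYOU1, an ER chaperone of the HSP70 family with 2 copies of the shorter element, fell from 8.56 and 8.75 to 7.69 and 7.49, a change of -1.07 (SE 0.10, adjusted p = 1.35e-06). The pair of arrays at each time was separated from the other pair by far more than it differed within itself. Non-overlap of the times was a condition of the rule that picked the largest falls, both genes among them.

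Among the chaperones, HSP90B1 (GRP94) fell from 10.70 and 10.66 to 10.09 and 10.10, with 2 copies of the longer element and a change of -0.59 (SE 0.06, adjusted p = 2.88e-06). PDIA4, a protein disulfide isomerase with no element in the window, fell from 9.91 and 9.96 to 9.45 and 9.33 (-0.54, adjusted p = 3.55e-05). HSPA5 (BiP), the chaperone that holds the stress sensors inactive, changed by -0.46, SDF2L1 by -0.49 and CALR (calreticulin) by -0.45, all called. These calls covered members with 1, 2 and no copies of an element.

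DNAJB9, a co-chaperone of BiP, stood at 8.66 in both arrays at 24 h and at 7.71 and 7.54 at 48 h (-1.03, SE 0.07, adjusted p = 2.79e-08), and its promoter window held no match. EIF2AK3, the sensor kinase PERK, fell from 7.68 and 7.66 to 6.88 and 6.65 (-0.91, adjusted p = 1.88e-05). The other sensors did not pass the test: ERN1 (IRE1) changed by -0.33 and ATF6 by -0.29. XBP1, the transcription factor downstream of IRE1, changed by -0.14 and the oxidase ERO1A by 0.26, neither called. The group was lower in chaperones, degradation factors and PERK, with values below 0 but no call for the other sensors.

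**Figure D2:**
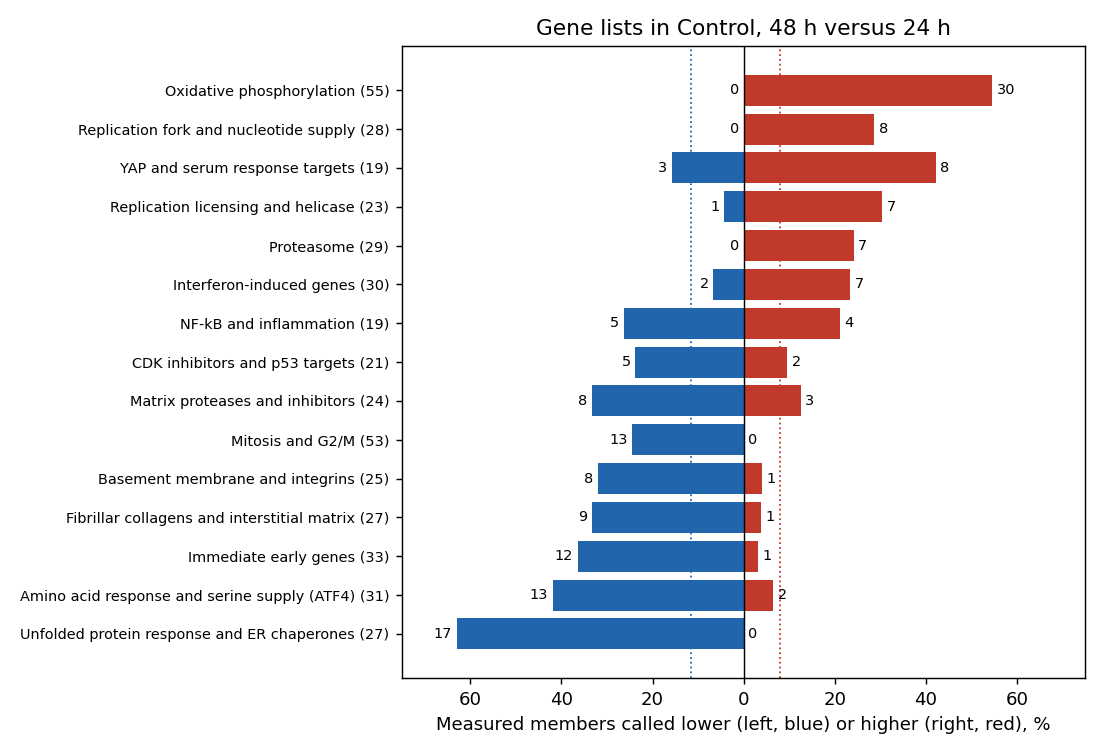
Share of measured members called lower (blue, left) or higher (red, right) at 48 h against 24 h in Control cells, in percent of the members measured (number in brackets), with counts at the bar ends, for 15 gene lists. Dotted lines mark the shares over all 7828 genes, 11.6% lower and 8.0% higher; the unfolded protein response has 17 of 27 lower and oxidative phosphorylation 30 of 55 higher.

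Of 31 measured genes of the amino acid and integrated stress response, which ATF4 drives, 13 were called lower (41.9%) and 2 higher (6.45%). Over all genes 11.6% were called lower and 8.0% higher, and the counts of the lists that follow stand beside these shares. The list median of -0.20 stayed below 0 at -0.06 after median centring. With that centring 7 members were called higher, and 1 was without Control 24 h replicate 2. ATF3, a transcription factor induced by many stresses, which is also on the immediate early list, fell from 7.73 and 7.91 to 6.35 and 6.41 (-1.44, SE 0.09, adjusted p = 1.22e-08). DDIT3, the pro-apoptotic factor CHOP, fell from 8.64 and 8.58 to 7.73 and 7.53 (-0.98, SE 0.09, adjusted p = 8.74e-07).

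Both factors were well separated between the times, and non-overlap was a condition of the rule that picked the largest falls. TRIB3, a pseudokinase induced by CHOP, fell from 9.10 and 8.90 to 8.32 and 8.28 (-0.71), PPP1R15A (GADD34), which restores translation after stress, from 7.77 and 7.63 to 6.81 and 6.88 (-0.86), and the transcription factor CEBPB from 9.75 and 9.79 to 9.23 and 9.13 (-0.59). The amino acid transporter SLC38A2 stood at 10.20 and 10.24 and then at 9.79 in both arrays (-0.43). In the other direction, PSAT1, an enzyme of serine synthesis, rose from 7.15 and 7.11 to 8.08 and 7.95 (0.88, SE 0.14, adjusted p = 0.000269). PSPH, the last enzyme of that pathway, was also called higher (0.47), PHGDH, its entry enzyme, changed by 0.31 without a call, and ATF4 itself by -0.16 without a call.

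Immediate early genes are the first transcripts that growth factors and stress induce. Of 33 measured members 12 were called lower, 1 higher and 20 neither, and the median was -0.23. The median was -0.10 after median centring, and no member was called higher without Control 24 h replicate 1 or Control 48 h replicate 1. DUSP5, a phosphatase that switches off ERK, fell from 7.72 and 7.78 to 6.86 and 7.0 (-0.82, SE 0.08, adjusted p = 4.00e-06). KLF6 fell from 8.31 and 8.48 to 7.65 and 7.62 (-0.76), and the AP-1 member JUND from 7.86 and 7.76 to 7.12 and 6.95 (-0.77). DUSP1 stood at 8.35 and 8.30 and then at 7.74 in both arrays (-0.59), and the call was lost when the probe sets of the gene were averaged (adjusted p = 0.146). EGR1 changed by -0.11 and FOS by -1.05, neither called.

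Collagens and other interstitial matrix genes were lower in part. Of 27 measured members 9 were called lower and 1 higher, with a median of -0.19, and the median was -0.13 after quantile normalization and -0.05 after median centring. COL6A2, a chain of type VI collagen, fell from 7.22 and 7.12 to 5.91 and 5.84 (-1.29, SE 0.09, adjusted p = 5.08e-08), a signal 2.44 times as high at 24 h. Its partner chain COL6A1 fell from 9.76 and 9.67 to 8.97 and 8.93 (-0.76, SE 0.06, adjusted p = 9.24e-08). Both chains fell in both arrays, which the naming rule required of COL6A2. With the brightest probe sets COL6A2 fell by more. The other probe set of COL6A2 gave -0.50, and those of COL6A1 gave -1.05 and -0.61.

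COL5A1, a chain of the type V collagen that sets fibril width, stood at 7.61 in both arrays and then at 6.53 and 6.68 (-1.01). Its other probe sets gave -0.33 and -0.76. LOX, the lysyl oxidase that crosslinks collagen, fell from 8.53 and 8.57 to 7.54 and 7.86 (-0.85), while its other probe sets gave -0.47 and -0.53. The glycoprotein TNC (tenascin C) fell from 9.88 and 9.89 to 9.42 and 9.52 (-0.42), and its other probe set gave -0.81. COL7A1, the anchoring fibril collagen, which was on no list, fell from 8.19 and 8.35 to 7.40 and 7.08 (-1.03). Not every collagen followed: COL1A1 changed by 0.02 without a call, and COL5A2 was called higher (0.44), a call absent from the list without Control 24 h replicate 1 or Control 48 h replicate 1.

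Basement membrane genes and integrins gave 8 of 25 called lower and 1 higher, with a median of -0.20. The number lower was 5 without Control 24 h replicate 1, 6 without Control 24 h replicate 2, 4 without Control 48 h replicate 1, 5 without Control 48 h replicate 2 and 3 after median centring, when the median was -0.06. LAMB2, a laminin chain, fell from 5.85 and 5.93 to 5.07 and 4.90 (-0.91, adjusted p = 0.000540), and COL18A1, the source of endostatin, from 7.53 and 7.74 to 7.11 and 7.28 (-0.44). ITGB8, the integrin subunit that activates TGF-beta, was the exception: it rose from 5.04 and 4.89 to 5.98 and 5.90 (0.98, SE 0.16, adjusted p = 0.000356).

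Among proteases that cut matrix and their inhibitors, 8 of 24 were called lower and 3 higher, with a median of -0.21. Without Control 24 h replicate 2 the number lower was 5, after median centring it was 4, and the number higher was 1 without Control 24 h replicate 2 or Control 48 h replicate 2 and 2 without either other Control array. The stromelysins and the interstitial collagenase were the members with the largest falls. MMP10 (stromelysin 2) fell from 6.99 and 7.05 to 5.14 and 5.01 (-1.95, SE 0.12, adjusted p = 1.22e-08 in limma). Its signal + 3 at 24 h was 3.86 times that at 48 h. MMP3 (stromelysin 1) fell from 6.37 and 6.74 to 4.60 and 5.31 (-1.60), and MMP1 (interstitial collagenase) from 7.68 and 7.64 to 6.70 and 6.58 (-1.02).

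The spread of MMP3 was wider than that of MMP10. The times did not overlap for any of the 3. For MMP10 and MMP3 this was a condition of the rule that picked the largest falls. ADAM12, a membrane metalloproteinase, fell from 9.0 and 8.82 to 8.36 and 8.07 (-0.69, or -0.42 for the mean of its probe sets). PLAU, the plasminogen activator urokinase, rose from 9.64 and 9.56 to 10.04 in both arrays (0.44, SE 0.06, adjusted p = 5.03e-05), and the inhibitor TIMP2 was called higher (0.68).

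Of 53 measured genes of mitosis and G2/M, 13 were called lower and 0 higher, with a median of -0.17. After median centring 2 were called lower and 1 higher, with a median of -0.03. The number lower was 5 without Control 24 h replicate 1, 7 without Control 24 h replicate 2, 6 without Control 48 h replicate 1 and 4 without Control 48 h replicate 2. CDC25B, a phosphatase that activates the mitotic kinase CDK1, fell from 8.08 and 8.03 to 7.52 and 7.43 (-0.58, SE 0.10, adjusted p = 0.000762). UBE2C, the ubiquitin-conjugating enzyme of the anaphase-promoting complex, fell from 9.64 and 9.72 to 9.33 and 9.29 (-0.37, or -0.23 after median centring).

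TTK, which encodes the kinase MPS1 that the study silenced, stood at 7.13 and 6.81 at 24 h and at 6.57 and 6.91 at 48 h. Its arrays overlapped between the times and the difference of -0.23 (SE 0.21, adjusted p = 0.476) was not called. CCNB1 (cyclin B1) changed by -0.07 and MKI67, the proliferation antigen Ki-67, by -0.07, neither called.

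For origin licensing and the replicative helicase, 7 of 23 members were called higher and 1 lower, with a median of 0.16 (0.30 after median centring, with 11 called higher). The number higher was 2 without Control 24 h replicate 1, Control 24 h replicate 2 or Control 48 h replicate 1, and 1 without Control 48 h replicate 2. MCM6, a helicase subunit, rose from 7.83 and 7.71 to 8.29 and 8.48 (0.61, SE 0.10, adjusted p = 0.000407). ORC6, a subunit of the origin recognition complex, fell from 8.83 and 8.93 to 8.53 and 8.60 (-0.32), and the call was lost after median centring (adjusted p = 0.0731).

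For the replication fork and nucleotide supply, 8 of 28 members were called higher and 0 lower, with a median of 0.12; 5 were called higher without Control 24 h replicate 2. PCNA, the sliding clamp of DNA polymerases, rose from 9.23 and 9.24 to 9.61 and 9.69 (0.41, SE 0.07, adjusted p = 0.000661). UNG, which removes uracil from DNA, rose from 7.82 and 7.68 to 8.27 and 8.32 (0.54), PRIM1, the primase subunit, from 6.40 and 6.43 to 6.92 and 6.87 (0.47), and RFC2, part of the clamp loader, from 7.33 and 7.11 to 7.75 and 7.91 (0.61). TYMS, which makes thymidylate, rose from 10.62 and 10.68 to 10.98 and 10.91 (0.29). In each of these genes, picked from the list for their small p, both arrays at 48 h lay above both at 24 h. This held for 14 of the 28 members and for 25.7% of all genes.

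Inhibitors of cyclin-dependent kinases and p53 targets gave 5 of 21 called lower (23.8%) and 2 higher (9.52%). The shares over all genes were 11.6% and 8.0%. The number lower was 2 without Control 24 h replicate 1, 3 without Control 24 h replicate 2 or Control 48 h replicate 2, and the number higher was 1 without Control 24 h replicate 1. The number lower was 2 after median centring, when the list median of -0.08 became 0.06. CDKN1A (p21) fell from 7.12 and 7.41 to 6.25 and 6.21 (-1.04, SE 0.14, adjusted p = 9.64e-05). CDKN1B (p27) fell from 7.40 and 7.47 to 6.95 and 6.87 (-0.53, SE 0.09, adjusted p = 0.000802). PLK2, a p53 target, rose from 8.27 and 8.10 to 8.56 and 8.62 (0.41), and MDM2, another, changed by -0.30 without a call.

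**Figure D3:**
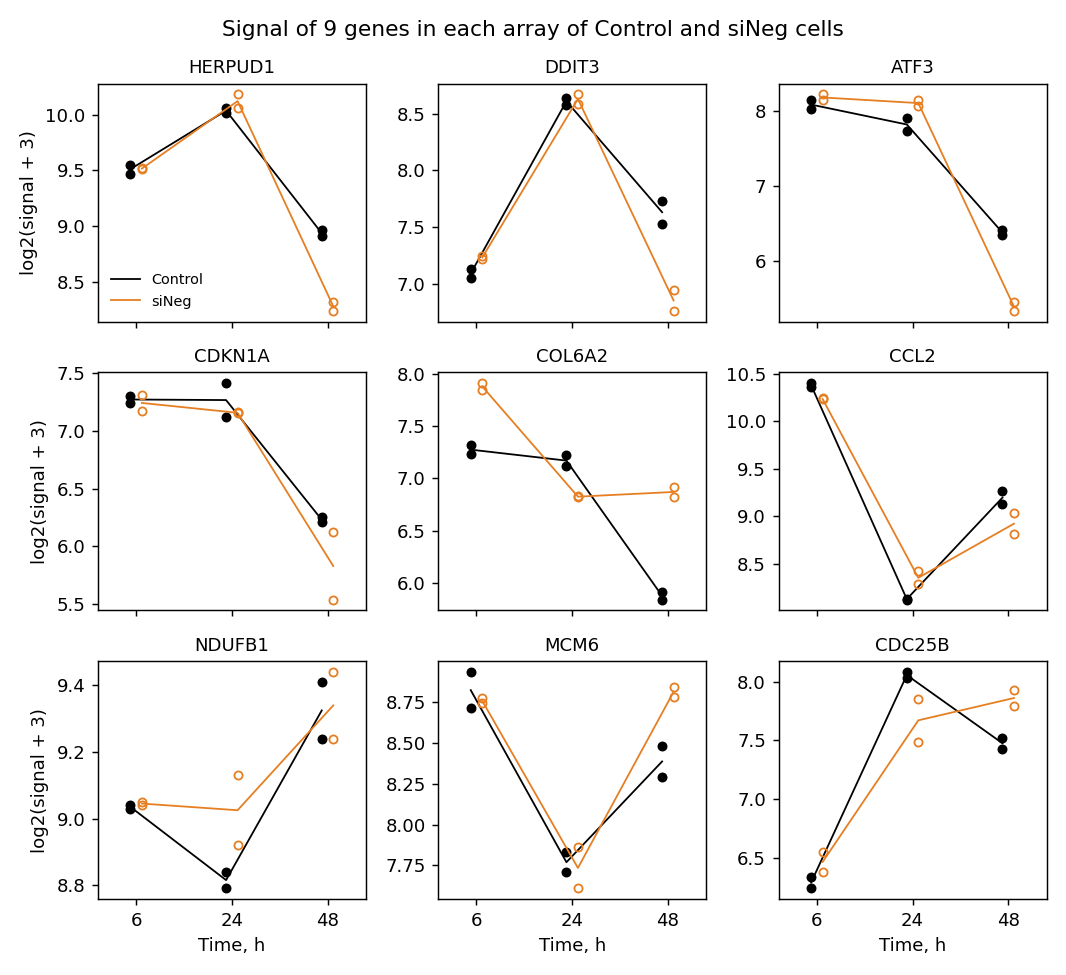
Level (y axis, log2 of signal + 3; each panel has its own range, which does not start at 0) of 9 genes at 6, 24 and 48 h (x axis, evenly spaced) in each array of Control (filled circles) and siNeg (open circles), with lines through the group means of 2 arrays. HERPUD1, DDIT3, ATF3 and CDKN1A are lower at 48 h than at 24 h in both kinds of cells, COL6A2 and CDC25B only in Control. CCL2, NDUFB1 and MCM6 are higher at 48 h than at 24 h in both. The difference in this change between the kinds of cells was called for all of these genes except CDKN1A and NDUFB1.

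Of 55 measured subunits of the mitochondrial respiratory chain and ATP synthase, 30 were called higher (54.5%) and 0 lower, beside 8.0% higher over all genes, and the median was 0.22 (0.18 after quantile normalization and 0.36 after median centring). In 45 of the 55 both 48 h arrays lay above both 24 h arrays, beside 25.7% of all genes. The number called was 19 without Control 24 h replicate 1, 18 without Control 48 h replicate 2 and 47 after median centring. Each single change was small, with the largest called at 0.59 for UQCRB, a subunit of complex III.

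In complex I, which takes electrons from NADH, NDUFB1 rose from 8.84 and 8.79 to 9.41 and 9.24 (0.50, SE 0.08, adjusted p = 0.000269). NDUFB5 stood at 9.03 in both arrays and rose to 9.50 and 9.46 (0.45), and NDUFA8 rose from 8.34 and 8.39 to 8.83 and 8.78 (0.44). ATP5MC2, a subunit of the membrane ring of ATP synthase, rose from 9.18 and 9.24 to 9.58 and 9.59 (0.37). NDUFAF3, an assembly factor of complex I that was not on the list, rose from 6.58 and 6.76 to 7.40 and 7.60 (0.83, SE 0.12, adjusted p = 0.000142). SDHA, the catalytic subunit of complex II, had the lowest value of the list at -0.19, without a call.

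The proteasome, which degrades ubiquitin-tagged proteins, gave 7 of 29 members called higher and 0 lower, with a median of 0.12. The number was 2 without Control 24 h replicate 1, 3 without Control 48 h replicate 2 and 21 after median centring. PSMD10 rose from 8.82 and 8.70 to 9.34 and 9.18 (0.50, SE 0.08, adjusted p = 0.000343), and PSMA3, a subunit of the core ring, from 9.53 and 9.64 to 9.90 and 9.98 (0.36).

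Interferon-induced genes gave 7 of 30 called higher and 2 lower, with a median of 0.15. ISG15, a ubiquitin-like protein, rose from 6.94 and 7.04 to 7.68 and 8.13 (0.92, SE 0.13, adjusted p = 0.000119). GBP1, a guanylate-binding GTPase, rose from 5.05 and 5.14 to 5.87 and 6.27 (0.97), PLSCR1, a phospholipid scramblase, from 8.47 and 8.42 to 9.11 and 9.0 (0.61), and IFI27 from 7.05 and 7.11 to 7.61 and 7.56 (0.50). The antigen-presenting HLA-B and HLA-C went the other way, from 9.94 and 9.99 to 9.53 and 9.54 (-0.43) and from 9.92 and 10.05 to 9.66 and 9.65 (-0.33). The mean of probe sets gave -0.27 for HLA-B, and median centring gave -0.19 for HLA-C. Probes of the HLA class I genes may not separate these near-identical genes.

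Inflammatory genes controlled by NF-kB were divided, with 4 of 19 called higher and 5 lower and a median of -0.14 that became 0.00 after median centring. The numbers higher and lower were 2 and 3 without Control 24 h replicate 1, 3 and 3 without Control 24 h replicate 2 or Control 48 h replicate 1, and 2 and 4 without Control 48 h replicate 2. The members called higher were the chemokines CCL2, CCL20 and CXCL8 and the pattern recognition protein PTX3, and those called lower were IL11, IL6, LIF, PTGS2 and TNFAIP3. CCL2, which attracts monocytes, rose from 8.13 and 8.12 to 9.13 and 9.26 (1.07, SE 0.10, adjusted p = 1.35e-06). IL11 fell from 9.61 and 9.54 to 8.72 and 8.53 (-0.95, SE 0.07, adjusted p = 7.47e-08) and IL6 from 6.52 and 6.53 to 5.54 and 5.63 (-0.94, SE 0.14, adjusted p = 0.000142). CCL20, a dim chemokine gene, stood at 2.39 and 2.57 and then at 3.53 and 4.17 (1.37, adjusted p = 0.00286), with an adjusted p of 0.0553 without Control 48 h replicate 2. CXCL8, called at 0.48, had adjusted p-values of 0.266 without Control 24 h replicate 1 and 0.131 without Control 48 h replicate 2.

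Targets of YAP and of serum response factor, which report cell spreading and tension, gave 8 of 19 called higher and 3 lower, with a median of 0.17. The number higher was 3 without Control 24 h replicate 2 and 5 without Control 48 h replicate 2. TPM2, a tropomyosin, rose from 7.78 and 7.79 to 8.48 and 8.53 (0.72, SE 0.11, adjusted p = 0.000257). ANKRD1 rose from 7.31 and 7.23 to 8.0 and 7.83 (0.64), and F3 (tissue factor) from 9.0 and 8.78 to 9.37 and 9.46 (0.53). The falls included NT5E (CD73), from 8.37 and 8.34 to 7.78 and 7.70 (-0.62), and the receptor kinase AXL, from 9.73 and 9.65 to 9.19 and 9.31 (-0.44).

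Counts for other gene groups stand beside 11.6% lower and 8.0% higher over all genes. Cytosolic ribosomal proteins had 2 of 50 members called higher and 0 lower with a median of 0.02, ribosome biogenesis 4 of 36 higher and 2 lower, and hypoxia and glycolysis 3 of 34 higher and 6 lower. Insulin and growth factor signalling had 8 of 24 lower and 4 higher, and TGF-beta and BMP signalling 7 of 27 lower and 2 higher. Cholesterol synthesis had 3 of 16 members called in each direction.

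Among bright genes outside these groups, TMEM14A, a small membrane protein, rose from 7.77 and 7.74 to 8.77 and 8.78 (1.02, SE 0.10, adjusted p = 1.91e-06), a 2.03-fold increase of signal + 3. NUDT21, a subunit of the mRNA cleavage factor that sets polyadenylation sites, rose from 6.81 and 7.02 to 7.83 and 7.86 (0.93). Its other probe set gave 0.33. SCG2 (secretogranin II), a secretory granule protein, rose from 9.32 and 9.41 to 10.14 and 10.08 (0.75). LY96, the co-receptor MD-2 of TLR4, rose from 7.70 and 7.71 to 8.52 and 8.53 (0.82), and IL7R, the interleukin-7 receptor, from 7.29 and 7.31 to 8.06 and 8.10 (0.77).

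For these rises both 48 h arrays lay above both 24 h arrays, as the rule that picked them required. DIRAS3, a small GTPase, rose from 8.29 and 8.33 to 9.06 and 9.30 (0.87), GTF2H5, a subunit of the repair and transcription factor TFIIH, from 7.13 and 7.24 to 8.14 and 7.98 (0.88), and GNG11, a G protein subunit, from 7.03 and 7.30 to 8.03 and 8.14 (0.92). The remaining bright rises chosen by rule were ACOT13 (0.83), ACP6 (0.75) and CYB5R2 (0.78); CYB5R2 had an adjusted p of 0.0880 without Control 24 h replicate 2. Dim rises were CCDC85B, from 4.76 and 4.88 to 6.42 and 6.24 (1.51; the other probe set gave 0.19 and the mean of both 0.85), AKR1C3, from 5.06 and 4.81 to 6.42 and 6.06 (1.30), and FLG, from 5.39 and 5.62 to 6.82 and 6.68 (1.24). C6orf15 (1.56, adjusted p = 0.0232) was dim as well and its adjusted p was 0.113, 0.0746, 0.0521 and 0.153 without Control 24 h replicate 1, Control 24 h replicate 2, Control 48 h replicate 1 and Control 48 h replicate 2.

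Bright falls outside the groups included RSRP1, which encodes a protein rich in arginine and serine, from 8.61 and 8.67 to 7.51 and 7.55 (-1.10, SE 0.07, adjusted p = 2.79e-08). OGT, the enzyme that adds O-GlcNAc to proteins, fell from 9.35 and 9.43 to 8.42 in both arrays (-0.97), while its other probe sets gave -0.30, -0.29 and -0.48 and the mean of all gave -0.51. SGSM2 fell from 7.73 and 7.78 to 6.69 and 6.43 (-1.20), while its other probe sets gave -0.72 and -0.62. SS18L1, a subunit of neuronal BAF chromatin remodelling complexes, fell from 7.02 and 6.97 to 5.81 and 5.95 (-1.12). NPIPA1 changed by -1.10 and HNRNPA3 by -1.10, but both belong to families with near-identical copies, and the other probe sets of HNRNPA3 gave -1.09 and 0.01.

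Of the dim falls, POSTN (periostin, a matrix protein) stood at 4.49 and 4.19 and then at 1.96 and 2.88 (-1.92), IGFBP4 at 4.38 and 3.82 and then at 1.83 and 2.18 (-2.10), and ARVCF, a catenin, at 5.01 and 4.47 and then at 2.94 and 2.96 (-1.79). At these levels the pseudocount makes up much of the value at 48 h, so the size of the change in signal cannot be read from the folds.

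The same interval was examined in siNeg cells, whose 4 arrays share none with the Control arrays. In siNeg, 2287 genes (29.2%) were called between 24 and 48 h, 1067 higher (13.6%) and 1220 lower (15.6%); the number was 1498 without siNeg 24 h replicate 1 and 1461 without siNeg 48 h replicate 1. Of the 1533 genes called in Control, 746 (48.7%) were called in the same direction in siNeg, which is 32.6% of the siNeg calls, and 57 were called in the opposite direction. Over all 7828 genes, 1753 (22.4%) were called in siNeg with the sign of their Control change and 534 with the opposite sign. The sign was shared by 81.1% of the genes called in Control, beside 62.7% of all genes, and across the 7828 genes the changes had Pearson's r = 0.36 and Spearman's rho = 0.35, given as a description, since genes are not independent replicates.

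A direct test of the difference between the changes called 810 genes (10.3%), 473 with the siNeg change above that of Control (6.04%) and 337 below (4.31%); after median centring these were 275 and 539. The total was 417 without Control 24 h replicate 2, 495 without Control 48 h replicate 1, 402 without siNeg 24 h replicate 1 and 399 without siNeg 48 h replicate 1. Control probe sets differed between the times as well. The 18S ribosomal RNA level was 11.90 at 24 h and 10.30 at 48 h in siNeg, beside 10.83 and 10.89 in Control. The added dap control RNA was at 8.23 and 6.55 in siNeg, beside 7.81 and 8.35 in Control. In Control its arrays did not overlap between the times (7.90 and 7.71, then 8.34 and 8.36), and the shift was opposite to that in siNeg. The part of these shifts in the Control changes, and in the differences between siNeg and Control, was not tested.

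**Figure D4:**
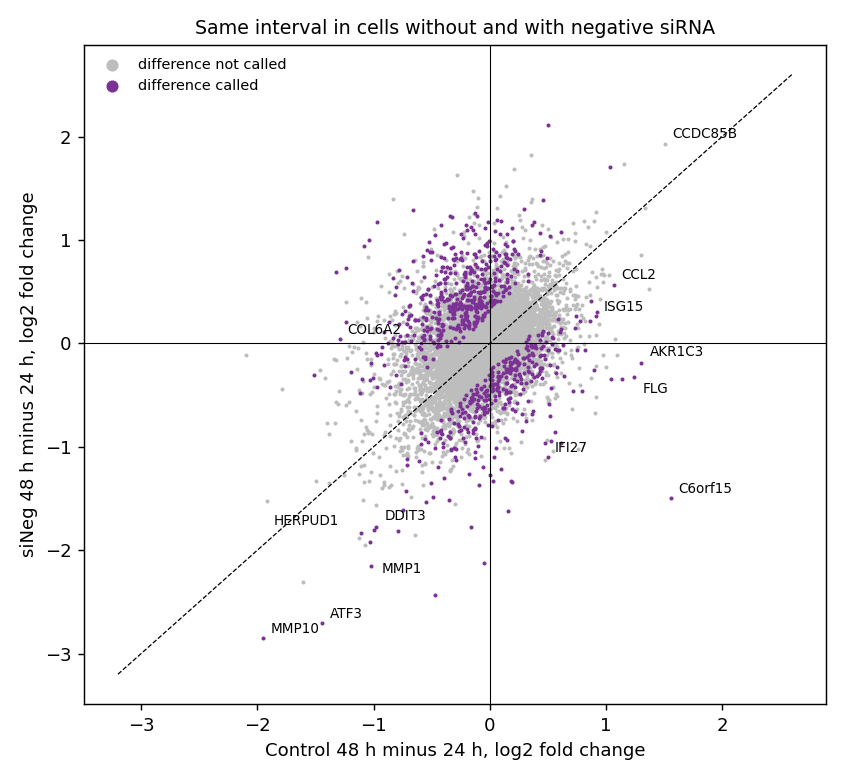
Change from 24 to 48 h in Control (x axis) against the change in siNeg (y axis), both as log2 fold change of signal + 3, for 7828 genes; purple marks the 810 genes whose changes were called different and the dashed line marks equal changes. ATF3, HERPUD1, DDIT3 and MMP10 lie below the line at lower left, COL6A2 lies near 0 on the siNeg axis, and IFI27 and C6orf15 have opposite signs.

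By group, the unfolded protein response was lower in both, with 21 of 27 called lower and 0 higher in siNeg (median -0.56), and for 7 members the siNeg change was called below that in Control. HERPUD1 changed by -1.83 in siNeg and -1.11 in Control (difference -0.73, adjusted p = 3.93e-05), and ATF3 by -2.71 and -1.44 (difference -1.27, adjusted p = 7.14e-06). Oxidative phosphorylation was higher in both, with 25 of 55 called higher and 0 lower in siNeg (median 0.20), and the difference was called for 4 members, 1 higher in siNeg and 3 lower. IL11, DUSP5, CDKN1A, RSRP1 and PCNA changed by -1.10, -0.99, -1.33, -1.19 and 0.45 in siNeg, each called, and the difference from Control was called for none of these 5.

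Over all genes the siNeg change was called above that of Control in 6.04% and below in 4.31%. In the amino acid and integrated stress response it was called below in 10 of 31 members and above in 4, in autophagy and lysosome below in 8 of 40 and above in 0, and in oxidative stress below in 5 of 23 and above in 0. For mitosis the siNeg change was called above that of Control in 13 of 53 members and below in 0, and 12 members were called higher and 1 lower in siNeg. CDC25B changed by 0.19 in siNeg against -0.58 in Control (difference 0.78, adjusted p = 0.00289). For basement membrane and integrins the difference was called in 9 of 25 members, all with siNeg above Control, and COL6A2 of the interstitial list changed by 0.04 in siNeg against -1.29 (difference 1.33, adjusted p = 4.83e-06). For interferon-induced genes it was called in 9 of 30 members, all with siNeg below Control. IFI27 moved in opposite directions, by -1.10 in siNeg and 0.50 in Control (difference -1.60, adjusted p = 5.03e-07).

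**Figure D5:**
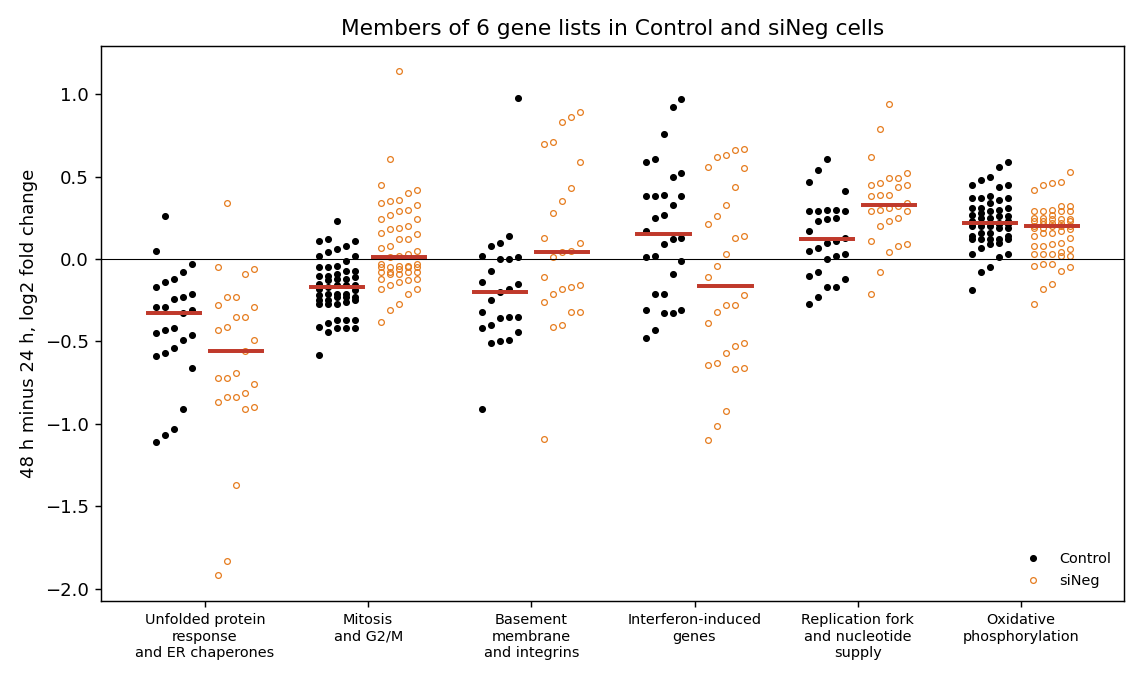
Change from 24 to 48 h (y axis, log2 fold change of signal + 3) of each measured member of 6 gene lists (x axis) in Control (filled) and siNeg (open), with red bars at the list medians; the horizontal spread of points carries no meaning. The unfolded protein response lies below 0 in both (medians -0.33 and -0.56) and oxidative phosphorylation above 0 in both (0.22 and 0.20), while interferon-induced genes have medians of 0.15 and -0.16.

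The interval before, from 6 to 24 h in Control, shares the 24 h arrays with the later one, so a high or low 24 h array enters both with opposite sign. The values of both intervals are set side by side here. A test of their difference is given further below, and in it a high or low 24 h array adds to the difference from both changes. In that interval 3372 genes (43.1%) were called, 2125 higher (27.1%) and 1247 lower (15.9%); after median centring these were 1302 and 1923. The list medians from 6 to 24 h and from 24 to 48 h were 1.48 and -0.17 for mitosis, 0.49 and -0.33 for the unfolded protein response, -0.69 and -0.19 for interstitial matrix, -0.43 and -0.23 for immediate early genes, -0.52 and 0.17 for YAP and serum response targets, and 0.12 and 0.22 for oxidative phosphorylation. From 6 to 24 h, 51 of 53 mitotic genes were called higher, and 19 of 27 genes of the unfolded protein response higher and 0 lower.

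Genes differed in where their 48 h level stood against 6 h, a comparison that shares the 48 h arrays and in which 26.5% of all genes were called higher and 20.4% lower. DDIT3 stood at 7.13 and 7.05 at 6 h, below its 48 h level by 0.54 (adjusted p = 3.92e-05), and HYOU1 at 7.30 and 7.12, below it by 0.38 (adjusted p = 0.00387). HERPUD1 stood at 9.55 and 9.47 at 6 h and was 0.58 log2 units lower at 48 h (-0.58, adjusted p = 3.13e-07). CCL2 stood at 10.36 and 10.40 at 6 h, and its rise after 24 h left it lower than at 6 h (-1.19, adjusted p = 1.58e-08). COL5A1 stood at 9.24 and 9.17 and was lower by both steps (-1.60 and then -1.01), and POSTN, at 8.61 and 8.64, changed by -4.29 and then by -1.92.

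A test of the change after 24 h against the change before it called 2115 genes (27.0%), 769 with the later change above the earlier one (9.82%) and 1346 below (17.2%); after median centring these were 1624 and 612. The total was 1337 without Control 24 h replicate 1 and 1188 without Control 24 h replicate 2, the arrays that enter both changes. The test called 48 of 53 mitotic genes with the later change below the earlier one and 0 above. For the unfolded protein response it called 21 of 27 genes below and 0 above, and for interstitial matrix 15 of 27 above and 3 below.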

How the data were processed

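The deposited values are log2 MAS5 signals made by the authors, per the submitters' processing notes for MAS5; the log base and scaling were inferred from the values, since 2 to the power of the value has a 2% trimmed mean of 100.1 in each array. No source used here gives a genome build for the files. Of 22277 probe sets (62 of them controls), those naming 1 gene in the platform annotation were used (19064, of which 19052 matched RefSeq). The lowest 40% by mean were left out and the brightest probe set of each gene was kept, giving 7828 genes. Of the 116 named genes 44 had other probe sets, whose changes could be smaller or larger than the one given. In 4 of these genes some had the opposite sign, none of them called. Signals were put on log2(signal + 3), the 3 being the 20th percentile, which understates folds of dim genes. limma 3.58.1 in R 4.3.3 was fitted to all 18 arrays with 9 group means and an intensity trend (residual df 9, prior df 8.57), two-sided, with Benjamini-Hochberg adjustment over all genes, and was tested on simulated data. Array number, 2 in each group, limits the precision.

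The comparison and the 34 gene lists were chosen with earlier results of these data known. Genes were named by rule. Among called genes whose 48 h arrays both lay beyond the 24 h arrays, the 15 largest rises and falls above the median level and the 5 largest of each below it were taken. Up to 6 members of each described list with the smallest p, and TTK, were added. Other list members named were chosen after their values were seen.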

Additional observations from a re-analysis of the deposited data

Results flagged for a closer look

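The change from 24 to 48 h differed between siNeg and Control for 810 genes in limma (10.3% of all genes tested), and for 49 of the 116 named genes. The named genes, apart from TTK, were picked by their Control change, which the difference subtracts. An extreme Control value by itself moves the difference the other way, so the 49 cannot be set against the share over all genes. In 36 of these 49 the changes had the same sign in both. Differences below are the siNeg change minus the Control change on the log2 scale. The siNeg arrays also differed between the times in 18S and dap control levels, and the Control arrays in dap. The part of these shifts was not tested.

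The siNeg change lay above that of Control for 19 named genes. Among matrix and basement membrane genes the differences were 1.33 for COL6A2, 0.78 for COL4A2, 0.72 for COL18A1, 0.70 for LAMB2, 0.68 for COL5A1, 0.68 for COL7A1 and 0.37 for COL6A1. Among cell cycle genes they were 0.78 for CDC25B, 0.68 for ESPL1, 0.50 for KIF20A, 0.46 for MCM6 and 0.40 for UBE2C. The others were 0.92 for SGSM2, 0.75 for NPIPA1, 0.64 for SS18L1, 0.55 for OGT, 0.45 for PLAU, 0.44 for PPP1R15A and 0.43 for AXL.

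The siNeg change lay below that of Control for 30 named genes. Among stress and early genes the differences were -1.27 for ATF3, -0.89 for DNAJB9, -0.80 for DDIT3, -0.73 for HERPUD1, -0.42 for SLC38A2, -0.38 for CEBPB, -0.32 for MAFF and -0.28 for HSP90B1. Among interferon-induced genes they were -1.60 for IFI27, -0.65 for ISG15, -0.49 for HLA-B, -0.48 for PLSCR1 and -0.30 for HLA-C. Respiratory chain and proteasome genes gave -0.47 for NDUFB8, -0.40 for PSMD10, -0.37 for NDUFB5 and -0.35 for NDUFA1. The metalloproteinases gave -1.13 for MMP1 and -0.90 for MMP10. The others were -3.06 for C6orf15, -1.56 for FLG, -1.49 for AKR1C3, -0.96 for ANKRD1, -0.89 for LY96, -0.65 for DIRAS3, -0.62 for GNG11, -0.56 for IL7R, -0.50 for CCL2, -0.48 for SCG2 and -0.46 for GTF2H5.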

How the results depend on the processing

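Genes called higher in Control numbered 1392 after median centring and 13 with a 2-fold minimum as well, and 335 to 415 when a Control array of the comparison was left out. Genes called lower numbered 404, 63 and 470 to 600 in the same order. With the 2-fold minimum, 175 genes were called in siNeg, 124 for the difference between siNeg and Control, 557 for Control from 6 to 24 h and 822 for the difference between the Control steps. Leaving out an array gave 1461 to 1914 in siNeg, 399 to 784 for the difference between siNeg and Control (526 without the intensity trend) and 1188 to 1853 for the difference between the steps. The cause of these shifts was not tested, apart from the fewer arrays or stricter rule that some of them bring by construction. Of 115 called genes among the 116 named, 86 were called under all 14 alternatives, 29 lost the call under some, and none reversed; median centring ended 12 calls, and leaving out Control 24 h replicate 1 ended 17. Same-numbered arrays at 24 and 48 h did not deviate together (r = 0.03). With 2 arrays in each group this cannot tell whether same-numbered arrays shared a culture or batch. With the replicate number as a block, 627 genes were called higher, 882 lower, 2280 in siNeg, 788 for the difference between siNeg and Control, 3384 from 6 to 24 h and 2095 for the difference between the steps, and no named call changed. Of the deposited values 9.38% were below 0, a range in which signal is close to background.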
